A study of Homo sapiens with 6 samples.

Results

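Antisense transcripts that carry the name of the gene they lie against, with the ending -AS1, were described beside that gene in LNCaP cells. LNCaP is an established human prostate cancer cell line of luminal, androgen-sensitive character. The table listed 398 genes whose name ends in -AS1. For 365 of them the name without the ending was also a gene of the table, which gave 365 antisense members and 365 sense partners among 16000 genes. For the other 33 it was not. The 6 samples were 3 of LNCaP cells in the 10% whose ALDEFLUOR stain, a fluorescent substrate of aldehyde dehydrogenase, was brightest (ALDH high), and 3 of LNCaP cells in the dimmest 10% (ALDH low). Both were grown in RPMI-1640 with 10% fetal bovine serum after the sort, with no further treatment given. All 6 samples are the same cell line, no source tells whether each sample is its own sort or culture, and p-values therefore measure the spread between these samples alone, which may be technical.

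Antisense transcripts are RNAs made from the DNA strand opposite to a gene. Many start at the same promoter as that gene and run away from it, some start inside it or beyond its end and run back across it, and a few have roles of their own, for example as hosts of small nucleolar RNAs. At some genes an antisense transcript lowers or raises the output of the sense gene, at others both follow the activity of 1 shared promoter, and for most no role is known. Most are spliced and polyadenylated at low level, and the short unstable kind from promoters is removed by the nuclear exosome. The comparison asks how far both genes of a pair differ in level, whether they vary together over the libraries, and whether either differs between ALDH high and ALDH low cells.

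Recovered reads numbered 23817310 to 30617873 per library. All 8 luminal markers looked for were in the table. Of the markers of other cell types it listed only 1 of 3 basal, 1 of 4 leukocyte, 1 of 4 fibroblast and 1 of 3 endothelial genes. ALDH high 1, ALDH high 3 and ALDH low 2 stood apart from ALDH high 2, ALDH low 1 and ALDH low 3 across the labels: the first principal component of the 500 most variable genes held 69.7% of the variance and gave ALDH high 1, ALDH high 3 and ALDH low 2 scores of 20.8, 21.2 and 19.1 and the other libraries −17.2, −20.7 and −23.1. No correlation over the 6 libraries is therefore given. Only ALDH high 1, ALDH high 3 and ALDH low 2 were close to each other, with a mean chi-square per gene between libraries of 5.24 to 9.88. Between ALDH high 2, ALDH low 1 and ALDH low 3 it was 63.2 to 89.8, so these were not a tight group. The only fibroblast marker listed, COL1A1, had 1469 to 1776 normalized reads in ALDH high samples and 821 to 1451 in ALDH low samples, without overlap, and its part in the results was not tested. The luminal marker TMPRSS2 did not overlap either, at 7972 to 8273 in ALDH high and 7055 to 7684 in ALDH low samples. The groups overlapped for basal KRT14, leukocyte CD68 and endothelial VWF. Of all 16000 genes, 6.99% did not overlap. In bulk samples, fewer cells of a kind and less RNA per cell cannot be told apart.

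In 365 of 365 pairs both genes lay on 1 chromosome and on opposite strands in GENCODE release 29. The members were chosen by the -AS1 name, which stands for this arrangement, so the count is a description only. Of the sense partners 364 are protein-coding, and of the members 262 are annotated as antisense, 50 as lincRNA and 40 as processed transcripts. The exons of 253 pairs shared bases, the gene bodies of 43 overlapped without shared exon bases, and 69 pairs lay head to head with no overlap, with a median of 111 bases between the annotated starts. In 131 pairs, 35.9%, the starts were at most 500 bases apart. In the 253 pairs with shared exon bases a median of 11.6% of the antisense exon bases, and at most 83.4%, were also exon of the sense gene. Exons of yet another gene touched those of 120 members. Whether the libraries kept strand is not stated, so in these pairs reads of a gene and of its antisense partner cannot be told apart, and the part of this in each value was not tested.

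Head-to-head pairs start from 1 stretch of DNA, which is why their promoters are shown. Below are the RefSeq windows (GRCh38.p14) from 250 bases before to 50 bases after the sense start, for the 6 such pairs with the most abundant antisense member, starts within 500 bases and a window in the table. Capitals mark the stretch from the antisense start in GENCODE release 29 to the sense start; for BAIAP2 the antisense start lies beyond the window, 270 bases upstream.
BAIAP2, chr17:81034901-81035200, + strand: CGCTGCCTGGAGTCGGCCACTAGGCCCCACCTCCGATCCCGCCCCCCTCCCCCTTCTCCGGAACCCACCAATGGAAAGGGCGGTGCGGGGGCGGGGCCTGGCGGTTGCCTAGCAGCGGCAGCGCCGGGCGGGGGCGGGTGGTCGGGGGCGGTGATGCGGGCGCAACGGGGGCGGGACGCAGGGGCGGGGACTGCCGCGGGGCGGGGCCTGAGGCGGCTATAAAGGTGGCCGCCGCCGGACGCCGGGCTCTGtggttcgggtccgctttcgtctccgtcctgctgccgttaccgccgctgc
URB1, chr21:32392963-32393262, - strand: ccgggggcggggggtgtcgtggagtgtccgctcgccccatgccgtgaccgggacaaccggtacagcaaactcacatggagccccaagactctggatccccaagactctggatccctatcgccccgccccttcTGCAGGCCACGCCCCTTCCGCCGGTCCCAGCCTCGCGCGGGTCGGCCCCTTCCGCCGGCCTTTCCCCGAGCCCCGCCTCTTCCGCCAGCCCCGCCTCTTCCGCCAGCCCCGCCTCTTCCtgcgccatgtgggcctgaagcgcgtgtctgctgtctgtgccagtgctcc
MNX1, chr7:157010614-157010913, - strand: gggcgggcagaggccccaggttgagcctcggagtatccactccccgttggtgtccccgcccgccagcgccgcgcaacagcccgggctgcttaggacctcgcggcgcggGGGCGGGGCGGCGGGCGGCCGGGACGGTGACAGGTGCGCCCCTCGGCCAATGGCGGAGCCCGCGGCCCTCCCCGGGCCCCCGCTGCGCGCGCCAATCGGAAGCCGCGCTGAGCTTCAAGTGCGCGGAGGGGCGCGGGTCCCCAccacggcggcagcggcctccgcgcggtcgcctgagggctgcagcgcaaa
MAN1B1, chr9:137086735-137087034, + strand: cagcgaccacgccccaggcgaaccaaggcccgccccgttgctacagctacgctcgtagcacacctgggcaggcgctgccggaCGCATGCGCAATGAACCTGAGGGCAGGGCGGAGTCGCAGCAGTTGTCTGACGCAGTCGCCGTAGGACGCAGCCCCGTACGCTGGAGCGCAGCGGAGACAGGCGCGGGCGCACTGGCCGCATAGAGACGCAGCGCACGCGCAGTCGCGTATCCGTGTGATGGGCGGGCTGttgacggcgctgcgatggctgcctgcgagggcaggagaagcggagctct
RAB30, chr11:83071848-83072147, - strand: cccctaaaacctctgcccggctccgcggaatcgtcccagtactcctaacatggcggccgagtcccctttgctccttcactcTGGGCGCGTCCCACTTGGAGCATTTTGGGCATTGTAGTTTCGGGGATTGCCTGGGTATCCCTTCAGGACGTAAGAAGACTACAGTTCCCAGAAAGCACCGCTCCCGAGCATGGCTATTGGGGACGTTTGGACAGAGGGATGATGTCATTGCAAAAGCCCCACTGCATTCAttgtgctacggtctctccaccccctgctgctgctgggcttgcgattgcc
UBA6, chr4:67701106-67701405, - strand: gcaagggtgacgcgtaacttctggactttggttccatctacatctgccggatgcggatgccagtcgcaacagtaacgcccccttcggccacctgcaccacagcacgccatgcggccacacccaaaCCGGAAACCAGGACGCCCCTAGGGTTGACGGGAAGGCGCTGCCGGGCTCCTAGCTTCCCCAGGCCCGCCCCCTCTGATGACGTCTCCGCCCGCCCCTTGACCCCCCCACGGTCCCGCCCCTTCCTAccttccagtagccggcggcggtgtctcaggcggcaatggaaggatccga

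The windows of BAIAP2, URB1, MNX1, MAN1B1, RAB30 and UBA6 held 38, 28, 44, 38, 15 and 25 CpG pairs, against a median of 32 in the 56 head-to-head sense promoters found in the table, 27 in those of all sense partners and 14 in all 35116 windows. The GC box GGGCGG, searched on both strands, occurred in all of them except RAB30. It was present in 78.6% of the head-to-head sense promoters, in 69.6% of the promoters of all sense partners and in 45.0% of all windows. TATAAA, the TATA box, occurred in BAIAP2 alone among the 6, in 7.14% of the head-to-head set, in 7.17% of all sense partners and in 11.5% of all windows. CCAAT occurred in BAIAP2, MNX1 and RAB30, in 23.2% of the head-to-head set, in 35.5% of all sense partners and in 34.6% of all windows. None of these motifs contains another on either strand, and a match is a description of the window only. For 293 of the 365 sense partners a window was found. The set of all windows was not limited to genes counted here or to protein-coding genes, so it is not like the sense sets.

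Antisense members were far less abundant than their partners. Their mean over the 6 libraries ran from 10.3 to 28432 normalized reads with a median of 69.95, against 9.79 to 82600 with a median of 820 for the sense partners. A mean of at least 50 was reached by 218 members and 338 partners. Per kb of exon, the scale on which genes of different length are compared, the median level was 29.2 for members and 131 for partners. The median antisense-to-sense ratio per kb was 0.239, with quartiles of 0.058 and 0.871. In 126 pairs the ratio lay below 0.1 and in 85 above 1. By arrangement, the median ratio was 0.193 in pairs with shared exon bases, 0.413 in those with overlapping bodies and 0.43 in head-to-head pairs. The ratio did not follow the size of the overlap in 1 direction, with medians of 0.416, 0.12, 0.206 and 0.321 at no shared antisense exon bases, up to 10%, up to 25% and above 25% (112, 115, 83 and 55 pairs).

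**Figure D1:**
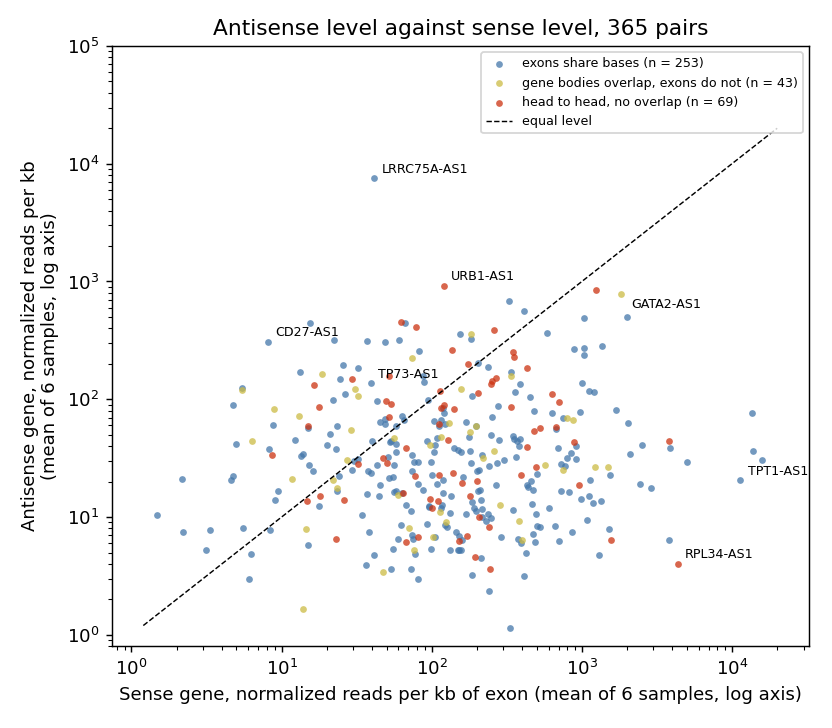
Level of each antisense gene (vertical axis) against its sense gene (horizontal axis), both as the mean over 6 samples of normalized reads per kb of exon on log axes, for 365 pairs coloured by arrangement. Most points lie below the dashed line of equal level, 85 lie above it, and LRRC75A-AS1 stands highest.

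LRRC75A-AS1 (chr17:16438822-16478678), a host gene of small nucleolar RNAs, was the most abundant member. It had 25744, 25247 and 25810.3 in ALDH high 1, 2 and 3, against 35883, 25472 and 32434 in ALDH low 1, 2 and 3, in normalized reads, the unit of all values per sample. It made up a mean of 33.5% of all antisense reads of a library, and ALDH low 1 and 3 stood above the other libraries, which lay close to each other. On the log2 scale ALDH high minus ALDH low was −0.27 (95% interval −0.68 to 0.13), −0.17 without ALDH low 1 and −0.41 without ALDH low 2. LRRC75A, the leucine-rich repeat gene opposite, had 195, 141 and 191 in ALDH high cells, against 144, 156 and 91 in ALDH low cells, and the ratio of 183 per kb was the highest of all pairs.

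OIP5-AS1 (chr15:41283990-41309737), a conserved long noncoding RNA, had 1989.9, 2087 and 1879 in ALDH high cells, against 3279, 2084 and 1639.9 in ALDH low cells. ALDH low 1 stood above the other libraries, and its partner OIP5, which helps to load the centromere histone, did not follow, with 442, 307 and 398 in ALDH high cells, against 454, 419 and 469 in ALDH low cells. GATA2-AS1 (chr3:128489212-128502348) averaged 1682 ± 217 in ALDH high cells against 1921 ± 348 in ALDH low cells (SD, n = 3 each), beside 8205 ± 148 in ALDH high cells against 8027 ± 1298 in ALDH low cells for GATA2, a zinc-finger transcription factor.

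GAS6-AS1 (chr13:113815630-113845744) lies against GAS6, the ligand of the AXL family of receptor kinases. It had 1115, 2204 and 1127 in ALDH high cells, against 1885, 908 and 1536 in ALDH low cells, and GAS6 had 1535, 929 and 1488 in ALDH high cells, against 968, 1207 and 1222 in ALDH low cells. The antisense member was high for ALDH high 2 and for ALDH low 1 and 3, while the sense gene was lowest in ALDH high 2 and ALDH low 1, so the ratio per kb ranged over the libraries from 0.609 to 1.99. TP73-AS1 (chr1:3735511-3747373) had 1483, 1400.5 and 1422 in ALDH high cells, against 1083, 1374 and 1231 in ALDH low cells, with no overlap between groups, while TP73, a p53 family gene, had 265, 380.5 and 218 in ALDH high cells, against 223, 267 and 244 in ALDH low cells. DHRS4-AS1 averaged 1196 ± 169 in ALDH high cells against 1424 ± 299.8 in ALDH low cells (SD, n = 3 each), and DHRS4, a reductase of retinal, 1233 ± 88.3 in ALDH high cells against 1448 ± 324 in ALDH low cells; DHRS4 has near-identical copies, so its count is uncertain. BAIAP2-AS1, whose promoter is printed above, was the steadiest of the abundant members at 1180.3, 1376 and 1259 in ALDH high cells, against 1266, 1210.4 and 1163 in ALDH low cells. The log2 differences of OIP5-AS1, GATA2-AS1, GAS6-AS1, TP73-AS1, DHRS4-AS1 and BAIAP2-AS1 were −0.17, −0.18, 0.03, 0.23, −0.24 and 0.07, each with a 95% interval that included 0. Without ALDH low 1 they were −0.04 for GATA2-AS1, 0.14 for TP73-AS1 and −0.08 for DHRS4-AS1. GATA2-AS1 was at −0.29 without ALDH high 2 and also without ALDH low 2. BAIAP2-AS1 was at 0.12 without ALDH high 1, 0.0076 without ALDH high 2 and, with ALDH low 3 left out, 0.04. The sign turned in GAS6-AS1 without ALDH high 2 or ALDH low 2 and in OIP5-AS1 without ALDH low 1.

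The 8 highest ratios belonged to pairs whose sense gene averaged from 11.4 normalized reads, in CD27, to 153, in LRRC75A. CD27-AS1 (chr12:6439001-6451567) had 977, 978 and 1015 in ALDH high cells, against 1186, 845 and 1295 in ALDH low cells, while CD27, a lymphocyte receptor of the tumour necrosis factor receptor family, had 16.8, 11.9 and 9.14 in ALDH high cells, against 14.7, 12.7 and 3.21 in ALDH low cells; the ratio per kb was 38.1. The values of CD27 rest on 3 to 17 recovered reads, and 37% of its exon bases are exon of CD27-AS1. The ratio per kb of this pair ranged over the libraries from 24.1 in ALDH high 1 to 167 in ALDH low 3. PRR34-AS1, MYLK-AS1, ZFPM2-AS1, MELTF-AS1, TMEM44-AS1 and FOXD3-AS1 followed with ratios of 29, 23.1, 22.2, 18.8, 14.1 and 12.9. Their partners include the smooth muscle kinase gene MYLK, the GATA cofactor gene ZFPM2, the transferrin family gene MELTF and the stem cell transcription factor gene FOXD3. ZFPM2-AS1 averaged 286 ± 20.9 in ALDH high cells against 358 ± 62.8 in ALDH low cells (SD, n = 3 each) and ZFPM2 47.5 ± 7.94 in ALDH high cells against 37 ± 3.76 in ALDH low cells. MYLK-AS1 averaged 118 ± 3.01 in ALDH high cells against 128 ± 29.3 in ALDH low cells and MYLK 144 ± 23.3 in ALDH high cells against 97.9 ± 31.8 in ALDH low cells. PRR34-AS1 averaged 443 ± 76.1 in ALDH high cells against 531 ± 141 in ALDH low cells, and TMEM44-AS1 314 ± 76.7 in ALDH high cells against 395 ± 113 in ALDH low cells. MELTF-AS1 averaged 112 ± 35.8 in ALDH high cells against 91 ± 34.9 in ALDH low cells, and FOXD3-AS1 215 ± 81.8 in ALDH high cells against 196 ± 33.7 in ALDH low cells.

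The low end held highly expressed housekeeping genes. RPL34-AS1 (chr4:108538190-108620460), head to head with the ribosomal protein gene RPL34, had 13.6, 10.0 and 13.7 in ALDH high cells, against 24.3, 26.4 and 22.5 in ALDH low cells, and RPL34 had 12513, 10297 and 14296 in ALDH high cells, against 22746, 11792 and 17128 in ALDH low cells. Groups did not overlap for the antisense member, whose log2 difference was −0.92 (95% interval −1.79 to −0.06). Each of its values rests on 11 to 28 recovered reads. MORF4L2-AS1 averaged 11.7 ± 6.05 in ALDH high cells against 15.1 ± 5.79 in ALDH low cells beside MORF4L2, a chromatin complex subunit, at 9635 ± 1077 in ALDH high cells against 10544 ± 680.2 in ALDH low cells. SLC25A5-AS1 averaged 93.2 ± 15.4 in ALDH high cells against 93.9 ± 17.1 in ALDH low cells beside SLC25A5, the mitochondrial ADP/ATP carrier, at 23430.0 ± 1392 in ALDH high cells against 24362 ± 5818 in ALDH low cells (SD, n = 3 each for all). TPT1-AS1 is described below with the pairs whose ratio moved. The ratios of RPL34-AS1, MORF4L2-AS1, TPT1-AS1 and SLC25A5-AS1 were 0.000924, 0.00169, 0.00181 and 0.00192 per kb. RPL34, MORF4L2, TPT1 and SLC25A5 have processed pseudogenes, and reads without a unique place were not counted.

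The 3 libraries with the highest antisense value were the same 3 as for the sense gene in 43 pairs, 11.8%. They had 2 in common in 176 pairs, 1 in 132 and 0 in 14. Head-to-head pairs had all 3 in common in 11 of 69, 15.9%, pairs with shared exon bases in 28 of 253, 11.1%, and pairs with overlapping bodies in 4 of 43, 9.3%. The 11 were the pairs of COX10, FOXD2, MAFG, OTUD6B, PTGES2, RFX3, SEMA3B, SMC5, TOLLIP, UBAC2 and USP46. For 753 protein-coding neighbours lying head to head within 5000 bases, a comparison added after the values were seen, the share was 11.2%. Of the 43 pairs, 15 had their 3 highest values in ALDH high 1, ALDH high 3 and ALDH low 2, and 10 had them in the other 3 libraries, the arrangement that the first principal component also gave.

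Among the pairs with the widest spread, the NR2F1 and ST7 pairs followed that arrangement in the counts of both genes. The component came from the 500 most variable genes, 17 of them genes of the pairs. Genes chosen for wide spread are therefore likely to follow it, and the match is a description only. NR2F1-AS1 (chr5:93409359-93585648) had 64.9, 18.2 and 65.2 in ALDH high cells, against 6.06, 49.8 and 16.1 in ALDH low cells. NR2F1, an orphan nuclear receptor gene, had 308, 47.4 and 328 in ALDH high cells, against 63.2, 265 and 53.6 in ALDH low cells. Both were high in ALDH high 1, ALDH high 3 and ALDH low 2, and the 2 groups overlapped. ST7-AS1 (chr7:116952446-116954334) had 48.2, 23.7 and 67.4 in ALDH high cells, against 25.1, 78.1 and 18.2 in ALDH low cells, and ST7, a candidate tumour suppressor gene, 5439.7, 1384 and 5450.1 in ALDH high cells, against 1211, 5313 and 1435 in ALDH low cells. The same 3 libraries were high in both. Of the exon bases of ST7-AS1, 24% are exon of ST7 and 28.3% are exon of other genes, and in the NR2F1 pair 2.05% of the antisense exon bases are exon of NR2F1. With both samples numbered 2 left out, limma called 107 of 16000 genes, a background of 0.669%. It called 0 of 365 antisense members and 3 of 365 sense partners, with log2 differences of 2.43 for NR2F1 (adjusted p = 0.0168), 2.05 for ST7 (adjusted p = 0.0107) and 1.28 for LENG8 (adjusted p = 0.0426). In the 4 libraries that remain, the ALDH label and the arrangement on the first principal component split them alike, so these cannot be told apart.

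**Figure D2:**
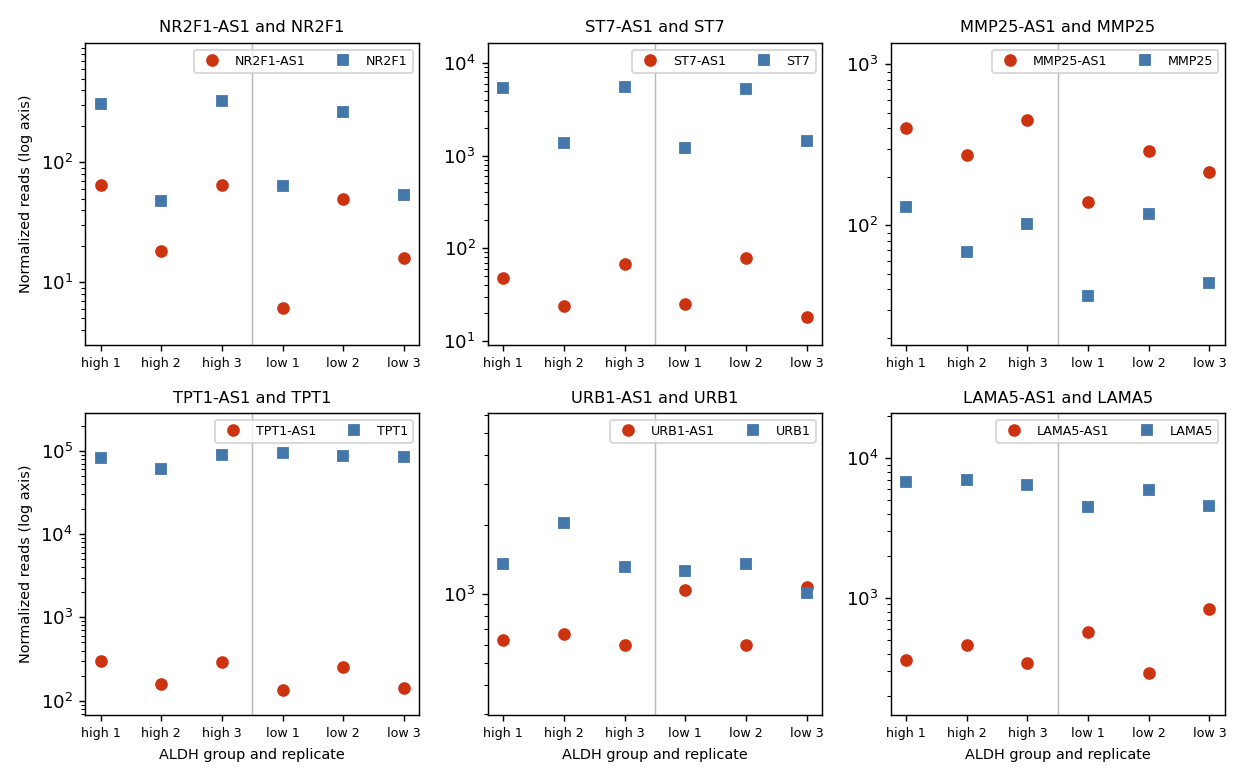
Normalized reads (log axis) of the antisense gene (circles) and its sense gene (squares) in each of 3 ALDH high (left of the grey line) and 3 ALDH low samples, for 6 pairs. NR2F1, ST7 and MMP25 share their 3 highest libraries with their antisense genes. URB1-AS1 and LAMA5-AS1 are highest in ALDH low 1 and 3, where URB1 and LAMA5 are lowest, and both TPT1-AS1 and TPT1 are lower in ALDH high 2 than in ALDH high 1 and 3.

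Several members varied more widely than their partner. PRKCZ-AS1 (chr1:2181794-2184389) had 110.0, 56.6 and 137 in ALDH high cells, against 40.7, 117 and 39.6 in ALDH low cells, whereas PRKCZ, an atypical protein kinase C of cell polarity, had 1366, 1361 and 1443 in ALDH high cells, against 1222, 1276 and 1450.3 in ALDH low cells. The SD over the 6 libraries was 0.80 on the log2 scale for the antisense gene and 0.10 for the sense gene. PDCD4-AS1 (chr10:110869868-110872233) had 24.1, 66.6 and 30.9 in ALDH high cells, against 75.4, 34.2 and 92.1 in ALDH low cells, beside 3253, 4262 and 3038 in ALDH high cells, against 3834, 3299 and 4169 in ALDH low cells for PDCD4, an inhibitor of translation. Here both were higher for ALDH high 2 and for ALDH low 1 and 3, by a smaller step in the sense gene. MID1IP1-AS1 (chrX:38801568-38803883) had 103, 303 and 103 in ALDH high cells, against 308, 183 and 137 in ALDH low cells, beside 6597, 7652 and 6509.7 in ALDH high cells, against 8016, 6585 and 9751 in ALDH low cells for MID1IP1, a regulator of lipid synthesis. It stood highest in ALDH high 2 and ALDH low 1, and 40.2% of its exon bases are exon of MID1IP1.

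SLC5A4-AS1 (chr22:32205115-32269666), against a gene of the sodium-glucose cotransporter family, had 42.9, 126 and 59.4 in ALDH high cells, against 133, 54.7 and 17.1 in ALDH low cells. Its SD of 1.07 was the largest among members with a mean of at least 50, and exons of other genes cover 32.6% of its exon bases. MAN1B1-AS1 (chr9:137084946-137086817), head to head with the endoplasmic reticulum mannosidase gene MAN1B1, had 305, 495 and 261 in ALDH high cells, against 505, 264 and 742 in ALDH low cells, while MAN1B1 had 3051, 2796 and 2963 in ALDH high cells, against 2798, 2748 and 3361 in ALDH low cells. The antisense member was high for ALDH high 2 and for ALDH low 1 and 3. The sense gene was also highest in ALDH low 3 but was not high in ALDH high 2 or ALDH low 1, although both genes start from the window printed above. ADORA2A-AS1 (chr22:24429206-24495074) and ADORA2A, an adenosine receptor gene, were both lowest in ALDH low 3, at 110.0, 73.9 and 121 in ALDH high cells, against 97.9, 102 and 32.1 in ALDH low cells for the antisense gene, and 112, 114 and 139 in ALDH high cells, against 87.5, 115 and 34.3 in ALDH low cells for the sense gene. Exons of other genes cover 56.8% of the exon bases of ADORA2A. STPG3 and ZNF460 were the other sense partners of wide spread. STPG3 had 89, 53.8 and 112 in ALDH high cells, against 30.3, 85.9 and 47.1 in ALDH low cells, and STPG3-AS1 52.4, 33.8 and 72 in ALDH high cells, against 27.7, 57.6 and 38.6 in ALDH low cells, in the same 3 highest libraries. ZNF460, a zinc-finger gene, had 67, 110.4 and 106 in ALDH high cells, against 81.4, 74.2 and 23.6 in ALDH low cells, with ZNF460-AS1 at 14.7, 10.9 and 21.7 in ALDH high cells, against 5.20, 19.5 and 19.3 in ALDH low cells.

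The members varied more than all genes together, and less than genes of like level. The median SD over the 6 libraries was 0.35 on the log2 scale for the 365 members, 0.25 for their partners and 0.27 for all genes. Between the quartiles of the members' levels, 30.9 and 163 normalized reads, it was 0.32 for the 183 members and 0.39 for all 2952 genes of that range.

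Between ALDH high and ALDH low no antisense member and no sense partner had an adjusted p under 0.05. By limma the calls were 0 of 365 members and 0 of 365 partners, where it called 0% of 16000 genes, and the smallest adjusted p was 0.984 for both sets. On recovered reads, 0 were also called by edgeR, by DESeq2 and by limma-voom. There 15, 14 and 13 members had an unadjusted p under 0.05, against 357, 355 and 337 of all 16000 genes. The authors' deposited table has no member or partner with an adjusted p under 0.05. In it 14 members and 10 partners had an unadjusted p under 0.05, against 355 of all 16000 genes. With limma the unadjusted p lay under 0.05 in 12 members, 3.29%, and 7 partners, 1.92%, against a background of 2.11%. The groups did not overlap in 31 members, 18 higher and 13 lower in ALDH high, against a background of 6.99% of all genes, 3.67% higher and 3.32% lower. For the partners it was 24, 13 higher and 11 lower. Of the members 167 had a log2 difference above 0 and 198 below, with a median of −0.03, which was 0.01 with column totals as scaling and 0.03 with totals free of mitochondrial genes. Of the partners 208 lay above 0 and 157 below, with a median of 0.04, where all genes had a median of 0.02 and 52.3% above 0. Both genes of a pair had the same sign in 218 of 365 pairs. By share of antisense exon bases in common, it was 57.1% of pairs at none and 62.6% up to 10%. It was 51.8% up to 25% and 70.9% above 25%, and the part of reads from shared exons was not tested. For 195 members and 320 partners the 95% interval stayed inside 2-fold in both directions.

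**Figure D3:**
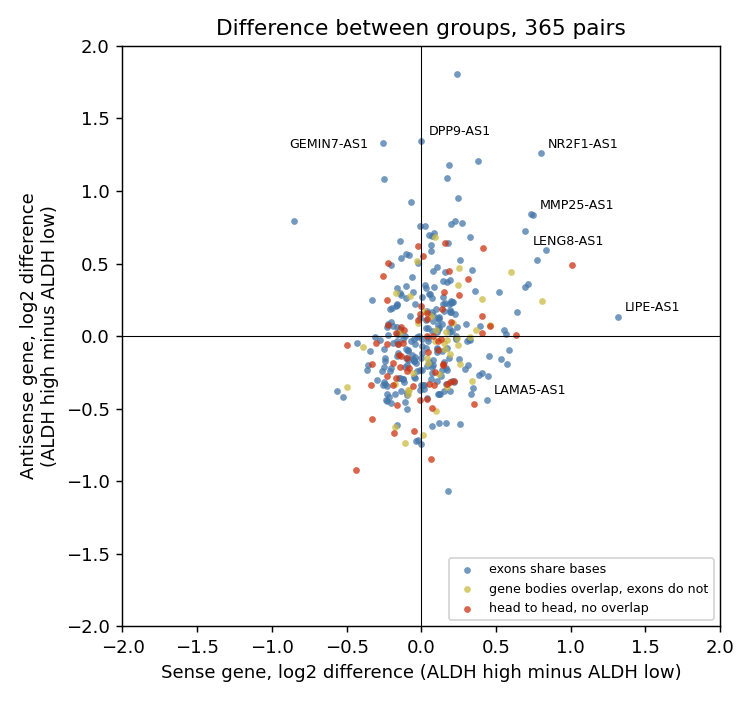
Log2 difference, ALDH high minus ALDH low, of each antisense gene (vertical axis) against its sense gene (horizontal axis) for 365 pairs coloured by arrangement; no point passed an adjusted p of 0.05. The points spread more widely along the antisense axis, from −1.07 to 1.80, than along the sense axis, from −0.85 to 1.32.

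The members with the smallest unadjusted p were all higher in ALDH high, and GEMIN7-AS1, YEATS2-AS1 and DPP9-AS1 each had 37 or fewer recovered reads in every library. GEMIN7-AS1 (chr19:45076510-45090391) had 20.9, 14.6 and 26.3 in ALDH high cells, against 6.06, 8.79 and 7.50 in ALDH low cells, a log2 difference of 1.33 (95% interval 0.32 to 2.34). Its groups did not overlap, and its values rest on 7 to 23 recovered reads. GEMIN7, a subunit of the SMN complex that assembles spliceosomal RNA-protein particles, had a difference of −0.26 (95% interval −0.79 to 0.27). YEATS2-AS1 (chr3:183806457-183810783) had 19.9, 33.8 and 41.2 in ALDH high cells, against 13.9, 10.7 and 17.1 in ALDH low cells, a difference of 1.09 (95% interval 0.16 to 2.03), beside 0.17 (95% interval −0.21 to 0.56) for YEATS2, a reader of histone acylation. DPP9-AS1 (chr19:4679282-4685948), which shares 49.8% of its exon bases with the peptidase gene DPP9, had 30.4, 22.8 and 9.14 in ALDH high cells, against 9.53, 4.88 and 6.43 in ALDH low cells, a difference of 1.35 (95% interval 0.13 to 2.57). Its groups overlapped, since ALDH high 3 lay just under ALDH low 1. DPP9 itself averaged 1788 ± 259 in ALDH high cells against 1779 ± 139 in ALDH low cells (SD, n = 3 each).

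MMP25-AS1 was the most abundant of this set (chr16:3037403-3059370), with 405, 272 and 450.4 in ALDH high cells, against 139, 289.9 and 214 in ALDH low cells. Its log2 difference was 0.84 (95% interval 0.19 to 1.48), and ALDH high 2 lay below ALDH low 2, so the groups overlapped. MMP25, a membrane-anchored matrix metalloproteinase gene, had 131, 68.4 and 102 in ALDH high cells, against 36.4, 118 and 43.9 in ALDH low cells, a difference of 0.74 (95% interval −0.22 to 1.71). Both genes had their 3 highest values in ALDH high 1, ALDH high 3 and ALDH low 2, and 35.2% of the exon bases of MMP25 are exon of MMP25-AS1. LENG8-AS1 (chr19:54444813-54449045) had 59.7, 63.9 and 65.2 in ALDH high cells, against 31.2, 42.9 and 39.6 in ALDH low cells, without overlap, a difference of 0.73 (95% interval 0.08 to 1.37). LENG8 had 3507, 2122 and 3388 in ALDH high cells, against 1242, 2947 and 1619 in ALDH low cells, a difference of 0.70 (95% interval 0.03 to 1.36), and its groups overlapped because ALDH high 2 lay below ALDH low 2. Without ALDH low 1 the LENG8 difference was 0.42, and without ALDH low 2 it was 1.05. ASMTL-AS1 (chrX:1401769-1414028), in the pseudoautosomal region, had 69.1, 49.3 and 60.6 in ALDH high cells, against 26.9, 43.9 and 32.1 in ALDH low cells, a difference of 0.80 (95% interval 0.08 to 1.51), while ASMTL had 3691, 2120.3 and 3756 in ALDH high cells, against 1926, 3517 and 2714 in ALDH low cells.

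Among sense partners, SRRM2, which encodes a scaffold protein of nuclear speckles (chr16:2752329-2772538), had the smallest unadjusted p. It had 11526, 12858 and 12822 in ALDH high cells, against 7366, 11186 and 7283 in ALDH low cells, a difference of 0.55 (95% interval 0.13 to 0.97), without overlap and with ALDH low 1 and 3 lowest. SRRM2-AS1 averaged 189 ± 45.6 in ALDH high cells against 181 ± 29.8 in ALDH low cells (SD, n = 3 each). LAMA5 and LIPE are given below. LLPH averaged 810.1 ± 81.7 in ALDH high cells against 1100.3 ± 186 in ALDH low cells, a difference of −0.43 (95% interval −0.81 to −0.05), and LLPH-AS1 51.7 ± 5.23 in ALDH high cells against 54.1 ± 11.9 in ALDH low cells. ASB16, a gene with a suppressor of cytokine signalling box, averaged 59.9 ± 13 in ALDH high cells against 33.9 ± 12 in ALDH low cells, a difference of 0.83 (95% interval 0.06 to 1.61). ASB16-AS1 was at 133, 133 and 187 in ALDH high cells, against 82.3, 111 and 105 in ALDH low cells, a difference of 0.59 (95% interval 0.04 to 1.15), without overlap of the groups. In the ASB16 pair 31.1% of the antisense exon bases are exon of the sense gene.

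The ratio of antisense to sense within a library cancels the scaling of that library. On the scale of log2((antisense + 1)/(sense + 1)) it was higher in ALDH high in 159 pairs and lower in 206, with a median difference of −0.06, which was −0.14 over the 112 pairs without shared exon bases. The groups did not overlap in 29 pairs, 16 higher and 13 lower, which is 7.95%. For 3 samples against 3 the smallest two-sided exact permutation p is 0.1, so no pair could pass 0.05, and 7 of the 48 pairs named here reached 0.1. The pairs below were chosen for the size of their difference, which is therefore a description.

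Among members with a mean of at least 50, TPT1-AS1 had the most positive ratio difference, 0.69. TPT1-AS1 itself (chr13:45341345-45393413) had 298, 158 and 291 in ALDH high cells, against 136, 257 and 140.3 in ALDH low cells, high in ALDH high 1, ALDH high 3 and ALDH low 2. TPT1, the translationally controlled tumour protein gene, had 82789, 60717 and 88507 in ALDH high cells, against 93679, 85767 and 84140.4 in ALDH low cells, lowest in ALDH high 2. CCDC18-AS1 had a ratio difference of 0.66 and 141, 88.5 and 142 in ALDH high cells, against 81.4, 113 and 58.9 in ALDH low cells, with its highest values in the 3 libraries that TPT1-AS1 had high. CCDC18, a coiled-coil gene, had 307, 308 and 277 in ALDH high cells, against 399, 364 and 223 in ALDH low cells, and the groups of both genes overlapped. Without both samples numbered 2 the ratio differences of TPT1-AS1 and CCDC18-AS1 were 1.14 and 1.05. RHPN1-AS1 (chr8:143366631-143368548), head to head with RHPN1, had 158, 117 and 125 in ALDH high cells, against 70.2, 106 and 83.6 in ALDH low cells without overlap, while RHPN1 averaged 2191 ± 527 in ALDH high cells against 2196 ± 345 in ALDH low cells (SD, n = 3 each). Its ratio difference was 0.64, and its groups did not overlap on the ratio scale (two-sided exact permutation p = 0.1). TSC22D1-AS1 lies against the leucine zipper gene TSC22D1, which had 3702, 4098 and 3954 in ALDH high cells, against 4352, 3704 and 4405 in ALDH low cells. TSC22D1-AS1 had 58.6, 92.1 and 51.4 in ALDH high cells, against 75.4, 49.8 and 22.5 in ALDH low cells, lowest in ALDH low 3, and the ratio difference of 0.64 was 0.13 without ALDH low 3.

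LIPE-AS1 had the most negative ratio difference of that set, −1.18, and the wider difference was that of the sense gene. LIPE, the hormone-sensitive lipase gene (chr19:42401507-42427426), had 51.3, 21 and 30.9 in ALDH high cells, against 13.9, 20.5 and 6.43 in ALDH low cells, with ALDH high 2 only just above ALDH low 2. Its log2 difference was 1.32 (95% interval 0.19 to 2.45), and its values rest on 6 to 49 recovered reads. LIPE-AS1 was at 98.4, 75.7 and 94.9 in ALDH high cells, against 69.3, 70.3 and 109 in ALDH low cells, and without ALDH low 3 the ratio difference was −0.55. Of the exon bases of LIPE-AS1, 11.9% are exon of LIPE and 29.6% are exon of other genes. LAMA5, the laminin alpha-5 gene (chr20:62307955-62367312), had 6828, 6987 and 6408 in ALDH high cells, against 4488, 5983 and 4569.6 in ALDH low cells without overlap, a difference of 0.44 (95% interval 0.09 to 0.79). LAMA5-AS1, inside it, had 359, 459.8 and 343 in ALDH high cells, against 575, 293 and 838 in ALDH low cells, and the ratio difference of −0.88 was −0.47 without ALDH low 3. URB1-AS1 (chr21:32393130-32393960) and URB1, a ribosome assembly gene, start 104 bases apart in GENCODE release 29, within the window printed above. URB1-AS1 had 627, 666 and 600.1 in ALDH high cells, against 1034, 596 and 1072 in ALDH low cells, high in ALDH low 1 and 3, and URB1 had 1347, 2027 and 1305 in ALDH high cells, against 1253, 1354 and 1010.1 in ALDH low cells, high in ALDH high 2 alone. Their ratio difference was −0.82. ATP2A1-AS1 averaged 99.9 ± 15.1 in ALDH high cells against 114 ± 11 in ALDH low cells, and ATP2A1, a calcium pump gene of fast muscle, 177 ± 34.7 in ALDH high cells against 119 ± 27.8 in ALDH low cells (SD, n = 3 each). The ratio difference was −0.76, with no overlap of the groups (two-sided exact permutation p = 0.1), and 42.2% of the exon bases of ATP2A1-AS1 are exon of ATP2A1.

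The remaining pairs with printed promoters showed smaller ratio differences than URB1. MNX1-AS1, head to head with the homeobox gene MNX1, had 436, 406 and 471 in ALDH high cells, against 462, 511 and 530.2 in ALDH low cells, and MNX1 385, 179 and 277 in ALDH high cells, against 200.1, 266 and 267 in ALDH low cells, highest in ALDH high 1. RAB30-AS1, against a Golgi GTPase gene, had 372, 287 and 375 in ALDH high cells, against 432, 294 and 394 in ALDH low cells, and RAB30 327, 414 and 326 in ALDH high cells, against 392, 368 and 277 in ALDH low cells. UBA6-AS1, against a ubiquitin-activating enzyme gene, had 286, 359 and 307 in ALDH high cells, against 376, 344 and 402 in ALDH low cells, and UBA6 1086, 1396 and 1185 in ALDH high cells, against 1747, 1311 and 959.8 in ALDH low cells. Exons of other genes cover 17.9% of RAB30-AS1 and 29.3% of UBA6-AS1. Over the 69 head-to-head pairs, 29 members lay above 0 and 40 below with a median log2 difference of −0.06, and the partners were split 34 to 35.

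The median deviation of the members from their own mean over 6 libraries was −0.0092, −0.0093 and −0.020 on the log2 scale for ALDH high 1, 2 and 3, against 0.088, −0.072 and 0.075 for ALDH low 1, 2 and 3. That of the partners was −0.0046, 0.054 and −0.0055 for ALDH high, against 0.019, 0.010 and −0.074 for ALDH low. All genes stayed within 0.0003 and 0.003. ALDH low 3 held the highest value of 107 members and 82 partners and the lowest value of 75 members and 124 partners. ALDH low 1 held the highest value of 88 members and 85 partners and the lowest of 62 members and 77 partners. Members took 0.295%, 0.31% and 0.293% of all reads for ALDH high 1, 2 and 3, against 0.368%, 0.291% and 0.317% for ALDH low 1, 2 and 3. Without LRRC75A-AS1 the shares were 0.198%, 0.214% and 0.198% for ALDH high, against 0.233%, 0.194% and 0.208% for ALDH low.

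**Figure D4:**
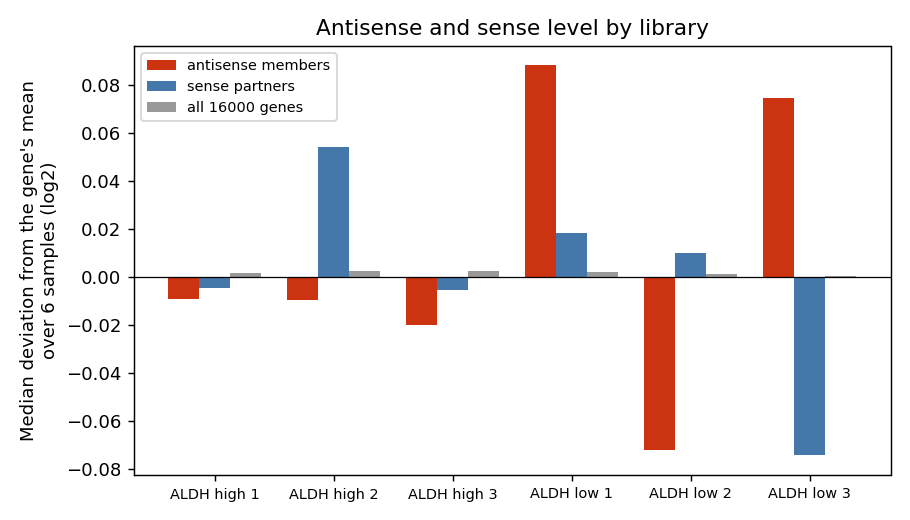
Median deviation from each gene's own mean over the 6 samples (log2 scale, bars from 0) for antisense members, sense partners and all genes in each library. Antisense members are highest in ALDH low 1 and 3, at 0.088 and 0.075, and sense partners are lowest in ALDH low 3, at −0.074.

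None of the listed factors that remove or bind such RNAs was called, where limma called 0 of all 16000 genes. All 34 listed genes of nuclear RNA turnover (exosome, its cofactors, cap-binding and termination factors) were in the table, with 0 called, 21 above 0 and 13 below, and a median of 0.03. C1D, an exosome cofactor, was at 682, 459 and 513 in ALDH high cells, against 1181, 675 and 659 in ALDH low cells, with overlapping groups. Of 20 double-stranded RNA factors, 0 were called, 16 lay above 0 and 4 below, with a median of 0.08. Of all genes 52.3% lay above 0, with a median of 0.02. The summed level of the turnover list ran from 61664 to 62281 in ALDH high and from 57340 to 62446 in ALDH low.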

How the data were processed

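Poly(A) RNA of 6 LNCaP samples was sequenced, per the labels' protocols. Trimmomatic 0.36, STAR 2.5.2b, featureCounts of Subread 1.5.2, DESeq2 and the build GRCh38 are named in the submitters' processing notes. Per the labels, only uniquely placed reads within exons were counted, by strand if the library kept it, which no source used here states. The signal that the authors deposited is normalized, and from its values it is a read count divided by a size factor of its sample. The authors' table also gives a deposited log2 fold change, positive where ALDH low is higher and p-values. It held 16000 genes and 46 spike-in rows left out of all tests. For each sample, 99.99% or more of values were whole multiples of 1 step (tolerance 0.02 of a read), so whole reads could be recovered.

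The test was limma 3.58.1 under R 4.3.3 on log2(normalized count + 1), with a trend of variance on level, over all 16000 genes, with Benjamini-Hochberg adjustment at 0.05. This scale understates changes of low genes. EdgeR 4.0.16, DESeq2 1.42.0 and limma-voom ran on the recovered reads as alternatives. Names are as deposited, and coordinates (counted from 1), exon lengths and overlaps come from GENCODE release 29 on GRCh38, which matched 15939 genes. Levels per kb divide by the length of all annotated exons. Named pairs are the 8 most abundant members, the 8 highest and 4 lowest ratios, the 6 smallest p on each side, the 6 widest spreads on each side with a mean of at least 50, the 4 largest rises and falls of the ratio, and the 6 printed promoters. Of these, 1 abundant member is not reported here. Genes named beyond that were chosen after their values were seen. The members, lists and rules were chosen with earlier results of these data known. The fits were tested on simulated counts with a fixed dispersion and no split between libraries across the labels. That test therefore cannot tell how the fits perform on libraries split as these are.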

Additional observations from a re-analysis of the deposited data

How the results depend on the processing

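Counts of called members stayed at 0 under every alternative run, namely pseudocounts of 0.5 and 5, a mean of at least 50, no mean-variance trend, edgeR, DESeq2, limma-voom, 2 other scalings, the replicate block and each left-out library. Without both samples numbered 2 the count was 107 over all genes and 3 among sense partners. There the antisense median was −0.10, and the cause was not tested. The sense median of 0.04 was 0.083 with column totals and 0.098 with totals free of mitochondrial genes; these scalings moved the median of all genes to 0.06 and 0.07. The ratio median was −0.14 over pairs without shared exon bases, which are fewer. Leaving out 1 library, the medians ranged from −0.08 to −0.01 for members, 0.0018 to 0.06 for partners and −0.10 to −0.03 for the ratio. GAS6-AS1 turned to −0.60 without both samples numbered 2 and ranged from −0.30 to 0.25 with 1 library left out, and OIP5-AS1 from −0.40 to 0.10.

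With the replicate number as a block, 0 genes, 0 members and 0 partners were called, and 3 members in place of 12 had an unadjusted p under 0.05. Over all 16000 genes it was 226 in place of 338, and among partners it was 7 in both fits. Deviations of same-numbered samples had correlations of −0.46, −0.43 and 0.14 across 11506 genes. Each number joins libraries from both sides of the first principal component, so these values cannot tell whether the numbers pair the samples. Members with under about 20 reads per library limit what depth can show.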

Other observations

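Other transcripts named after a neighbour were also listed, 33 with the ending -AS1 whose sense gene was not a row of the table and 37 with endings such as -AS2, -DT, -IT1 and -OT1. Limma called 0 of them, with medians of −0.02 and −0.0045 on the log2 scale. An unadjusted p under 0.05 was found for 2 in each set, 6.06% and 5.41%, against 2.11% of all genes. The genes given here were chosen after their values were seen. FGD5-AS1, a widely expressed long noncoding RNA, averaged 2795 ± 145 in ALDH high cells against 2772 ± 277 in ALDH low cells (SD, n = 3 each). CTBP1-AS2 averaged 1512 ± 89 in ALDH high cells against 1461 ± 141 in ALDH low cells. NCBP2-AS2, opposite the cap-binding subunit gene NCBP2, averaged 1288 ± 96 in ALDH high cells against 1604 ± 405 in ALDH low cells, and EPB41L4A-AS1 1178 ± 47.8 in ALDH high cells against 1481 ± 327 in ALDH low cells. LBX2-AS1, near the homeobox gene LBX2, averaged 21 ± 2.41 in ALDH high cells against 8.43 ± 6.62 in ALDH low cells, and ZNF426-DT, a divergent transcript of a zinc-finger gene, 39.3 ± 7.58 in ALDH high cells against 71.2 ± 20.6 in ALDH low cells. Their log2 differences were 1.43 (95% interval 0.24 to 2.63) and −0.81 (−1.55 to −0.08), with a limma adjusted p of 0.984.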
